A study of Mus musculus with 186 samples.

Results

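Transcripts of a captured gene panel were followed from 60 to 360 min after brief activity in cultured mouse cortical neurons. The comparison holds 10 of the 186 samples of the series, namely 5 libraries at 60 min and 5 at 360 min, paired by dissection (dissections 1, 2, 3, 6 and 7), and it covers all 298 genes of the panel. The starting level came from 10 unstimulated cultures of the same dissections, averaged to 1 value for each of the 5 dissections. Every culture was of cortical neurons taken from CD1 mouse embryos at day 16.5 and grown for 7 to 8 days, and every culture used here received the vehicle DMSO, the unstimulated ones included. The means of stimulation is not stated in the labels. For contrast, 10 libraries from 60 and 360 min of sustained activity in the same dissections were used. The deposited values are a signal, reads divided by the geometric mean of 47 control genes on the panel, so a value of 1 is the control level of that library, and levels of different genes are not compared because the signal is not corrected for transcript length.

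Electrical activity in neurons lets calcium in, and calcium and kinase signals reach the nucleus within minutes. The first genes to respond are the immediate-early genes. They need no new protein, many encode transcription factors, and their RNAs are short-lived, so their level follows transcription closely. Later genes encode synaptic, secreted and signalling proteins that alter how the neuron responds to its inputs, and some products, such as the dual-specificity phosphatases, shut off the kinases that started the response.

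One library stood apart. The 60 min library of dissection 2 held 8498 reads over the panel, against 1226457 to 3295698 in the other 19 libraries of these groups. In it 100 genes were at 0, against 1 to 10 in the others. One read there was worth a signal of 0.0739, so a gene at 0 could have had a level up to 0.222, the signal of 3 reads. The mean signal of its control genes was 8.62, against 2.69 to 3.92 elsewhere, so its values also sat high on the deposited scale. Results that rest on 60 min values are given with it, and the tested changes of the falling genes also without it. The panel held none of the cell type markers that were looked for, so the label of the cultures was checked in separate total RNA libraries of unstimulated vehicle cultures, over introns, in RPM (reads scaled to the depth of the library). All 10 neuron markers had a mean above 1 RPM, and they summed to 3104 to 4177 RPM in the 4 unstimulated libraries. The 6 astrocyte markers summed to 352 to 474 RPM, the 6 oligodendrocyte lineage markers with a listed intron to 80.5 to 157 RPM, the 6 microglia markers to 3.99 to 5.19 RPM and the 3 endothelial markers with a listed intron to 1.46 to 42.7 RPM. These sums are not corrected for intron length and do not give shares of cells. Single genes carried much of them, with Map2 at 1993 to 2734 RPM, Aif1 at 3.24 to 4.48 RPM and Kdr at 0.374 to 41.3 RPM. No marker was at 0 in all 4, and the part of other cell types in the captured values was not tested. In bulk cultures fewer responding cells and less RNA per cell cannot be told apart.

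Between 60 and 360 min, 10 of the 275 genes tested fell and 0 rose (3.64% and 0%; limma on log2 of signal plus a pseudocount of 0.00920, Benjamini-Hochberg adjusted p under 0.05). Of the 10, 8 were immediate-early transcription factor genes, Fos, Fosb, Egr1, Egr3, Nr4a1, Ier2, Maff and Klf4. The others were Arc, which encodes a synaptic scaffold protein, and Dusp6, a phosphatase gene that restrains the kinase ERK. Without the library of dissection 2, 14 genes fell (5.09%), of which 9 were among the 10. The RNA of all 10 was lower at 360 than at 60 min in 5 of 5 dissections, a pattern seen in 30 of the 275 genes (10.9%). In dissection 2 that direction rests on the shallow library, where Ier2 and Arc had 1 read each and Maff and Klf4 2 each.

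Fos, which encodes a subunit of the AP-1 transcription factor, showed the largest fall. Its signal in unstimulated cultures of dissections 1, 2, 3, 6 and 7 was 0.150, 0.0917, 0.127, 0.0684 and 0.0799. At 60 min it was 1.94, 5.47, 2.19, 1.45 and 2.25, and at 360 min 0.184, 0.176, 0.108, 0.0401 and 0.112. Every 60 min value lay above every value of the other groups, and the unstimulated and 360 min ranges overlapped. Fos was 1 of 8 genes in which all 360 min values lay below all 60 min values (2.91%), with Egr1, Fosb, Ier2, Klf4, Maff, Nfil3 and Nr4a1. For Ier2, Klf4 and Maff any read in the shallow library exceeds every 360 min value, so its 60 min value adds little there. All 8 genes also kept apart when only the deep 60 min libraries were used. The fall was -4.31 ± 0.40 on the log2 scale (SE, n = 5 dissections, limma adjusted p = 5.4e-06), and -4.01 ± 0.35 without the shallow library (adjusted p = 5.2e-06).

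Fosb, a partner of the same AP-1 family, was 0.130, 3.55, 0.301, 0.262 and 0.112 at 60 min and 0.0342, 0.0212, 0.00917, 0.00505 and 0.00592 at 360 min. The groups did not overlap, and the value of 3.55 came from the shallow library. The fall was -3.98 ± 0.71 with that library and -3.14 ± 0.37 without it (limma adjusted p = 0.0025 and 4.1e-05). Maff, a small basic leucine zipper factor, went from 0.0414, 0.148, 0.0442, 0.0342 and 0.115 to 0.0155, 0.0218, 0.0105, 0.00490 and 0.0253. Its groups did not overlap either, and it fell by 1.66 on the log2 scale (SE 0.37, limma adjusted p = 0.018), and by 1.39 without the shallow library (adjusted p = 0.016). The value of 0.148 is 2 reads of the shallow library, where even 1 read lies above every 360 min value of Maff. The deep libraries alone, at 0.0342 to 0.115, did not overlap with the 360 min values.

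The zinc-finger factor gene Egr1 was at 0.720, 1.92, 0.992, 1.56 and 0.483 at 60 min and at 0.120, 0.0887, 0.0871, 0.0440 and 0.0572 at 360 min. The fall was -3.59 ± 0.37 (limma adjusted p = 9.5e-06), and -3.36 ± 0.34 without the shallow library (adjusted p = 1.5e-05). Egr1 also lay below its own unstimulated level in 5 of 5 dissections, where that level was 0.126, 0.139, 0.170, 0.0827 and 0.184. The related Egr3 fell by 1.89 (SE 0.46, limma adjusted p = 0.032), from 0.0377 to 0.0758 in the 4 deep libraries at 60 min to 0.00580 to 0.0506 at 360 min. Its 60 and 360 min ranges overlapped, and without the shallow library it fell by 1.48 (adjusted p = 0.026). Klf4, a Krüppel-like zinc-finger factor, fell by 1.30 (SE 0.32, limma adjusted p = 0.032), from 0.0469 to 0.102 in the deep libraries to 0.0143 to 0.0435. In the shallow library Klf4 had 2 reads, and without that library its fall was -1.12 (adjusted p = 0.032).

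Nr4a1 encodes an orphan nuclear receptor. At 60 min it was 0.519, 0.296, 0.768, 0.320 and 0.559, and at 360 min 0.170, 0.124, 0.0876, 0.0501 and 0.0811. All values at 60 min were above all values at 360 min, and the fall was -2.18 ± 0.33 (limma adjusted p = 0.00051), or -2.34 ± 0.31 without the shallow library (adjusted p = 0.00011). At 360 min it remained above the unstimulated culture of its own dissection in 5 of 5 cases. Ier2, an immediate-early nuclear protein gene, went from 0.0484, 0.0739, 0.0389, 0.0611 and 0.0837 to 0.0155, 0.00980, 0.0123, 0.00907 and 0.00432 (-1.85 ± 0.23, limma adjusted p = 9.0e-05). The value of 0.0739 is a single read of the shallow library, and the fall without it was -1.78 ± 0.21 (adjusted p = 4.1e-05).

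Arc was at 0.155, 0.0739, 0.511, 0.112 and 0.249 at 60 min and at 0.0456, 0.0310, 0.0907, 0.0201 and 0.0478 at 360 min. The value of 0.0739 is again 1 read, and it was the only 60 min value inside the 360 min range. Arc fell by 1.85 (SE 0.47, limma adjusted p = 0.043), and by 2.14 without the shallow library (SE 0.45, adjusted p = 0.0094). Dusp6 was at 3.00, 9.02, 1.84, 2.69 and 3.90 at 60 min and at 1.61, 1.85, 0.656, 0.575 and 1.41 at 360 min, ranges that met at the value of dissection 3. It fell by 1.66 (SE 0.43, limma adjusted p = 0.043), and without the shallow library by 1.32 (SE 0.37, adjusted p = 0.054), which no longer passed. With the dissection as a replicate block and without that library its adjusted p was 0.0025.

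**Figure D1:**
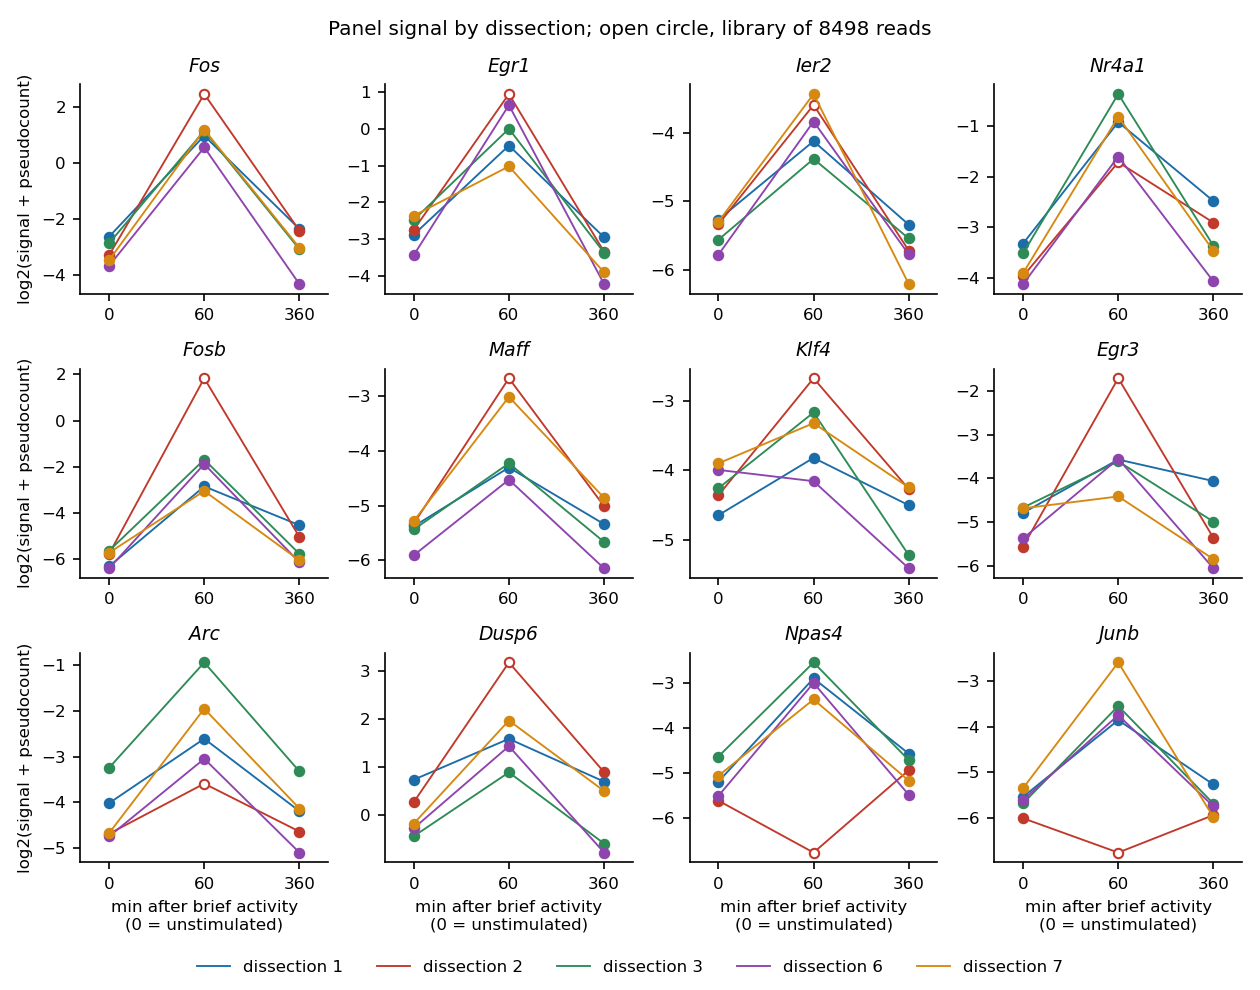
Panel signal of 12 genes on a log2 scale (pseudocount 0.00920 added) in unstimulated cultures (0) and at 60 and 360 min after brief activity, 1 line per dissection. The open circle is the 60 min library of 8498 reads, in which Npas4 and Junb were at 0. The other 4 lines rise and come back in each of the 12 genes, except that Klf4 in dissection 6 was no higher at 60 min than in unstimulated culture.

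A further 5 genes fell when the shallow library was left out, and Junb, Egr2 and Dusp5 are named here after their values were seen. In that library Junb, Egr2, Npas4 and Dusp5 were at 0. Npas4, a transcription factor gene specific to neurons, was at 0.126, 0.164, 0.117 and 0.0885 in the 4 deep libraries at 60 min and at 0.0331, 0.0236, 0.0291, 0.0132 and 0.0187 at 360 min. These values did not overlap, a pattern seen against the deep libraries in 14 of 275 genes (5.09%). The fall was -2.03 ± 0.24 (limma adjusted p = 4.1e-05), against -1.26 ± 0.61 (adjusted p = 0.48) with the library. Junb, another AP-1 subunit gene, fell by 2.29 (SE 0.25, adjusted p = 2.1e-05), Egr2 by 2.83 (SE 0.43, adjusted p = 0.00041), the phosphatase gene Dusp5 by 1.06 (SE 0.27, adjusted p = 0.033) and the repressor gene Nfil3 by 0.60 (SE 0.14, adjusted p = 0.025).

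The last genes past the threshold in the fit with all libraries were Egr3, Arc and Dusp6. The next in order were Spry4, an inhibitor of receptor kinase signalling (-1.41 ± 0.42, limma adjusted p = 0.10), Nfil3 (-0.87 ± 0.27, adjusted p = 0.12) and Btg2, an antiproliferative gene (-0.88 ± 0.27, adjusted p = 0.12). Btg2 was at 0.885, 0.961, 1.08, 1.05 and 2.09 at 60 min and at 0.399, 0.560, 0.714, 0.584 and 0.974 at 360 min. It was lower in 5 of 5 dissections, and with the dissection as a replicate block it fell (adjusted p = 0.031). The block together with the removal of the shallow library gave 20 falling genes (7.27%), among them all 10 above.

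Sequence upstream of the start is shown for Fos, Fosb, Nr4a1 and Maff, the falling genes whose RefSeq promoter windows hold the motif of the CREB factor, which is phosphorylated when calcium enters the neuron, within the 150 bases printed. Capitals mark TGACG, the core of the cyclic AMP response element, on either strand (CGTCA where it lies on the other strand), the full element TGACGTCA and the TATA box TATAAA. All are from the RefSeq table for build GRCm38.p6, 5′ to 3′ in the direction of transcription, ending 1 base before the annotated start. They lie at chr12:85473740-85473889 (plus strand) for Fos, chr7:19310046-19310195 (minus strand) for Fosb, chr15:101266696-101266845 (plus strand) for Nr4a1 and chr15:79347370-79347519 (plus strand) for Maff, whose second of 3 annotated starts is shown.
Fos: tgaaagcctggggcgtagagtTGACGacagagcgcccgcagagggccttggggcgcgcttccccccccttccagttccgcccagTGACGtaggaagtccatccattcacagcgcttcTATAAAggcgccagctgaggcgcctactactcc
Fosb: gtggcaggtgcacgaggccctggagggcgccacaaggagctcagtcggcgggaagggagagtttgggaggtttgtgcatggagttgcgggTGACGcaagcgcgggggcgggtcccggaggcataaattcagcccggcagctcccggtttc
Nr4a1: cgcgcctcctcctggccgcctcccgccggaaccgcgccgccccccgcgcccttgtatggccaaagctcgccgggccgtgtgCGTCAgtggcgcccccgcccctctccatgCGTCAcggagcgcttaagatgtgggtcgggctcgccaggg
Maff: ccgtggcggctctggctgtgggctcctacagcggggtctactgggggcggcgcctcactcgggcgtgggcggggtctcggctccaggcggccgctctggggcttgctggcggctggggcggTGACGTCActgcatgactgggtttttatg

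Of the 10 falling genes, 6 matched the table, with 8 promoter windows. Arc, Egr1, Egr3 and Ier2 had no entry. In the 250 bases before the start, TGACG was found on either strand in 6 of the 8 windows and in 5 of the 6 genes, Dusp6 being the exception. It was found in 17.8% of all 32851 windows of the table and in 36.2% of the 282 windows of panel genes, and the count includes TGACG inside a full element. In Fos it started 129 and 66 bases before the start and in Fosb 60 bases before it. The full TGACGTCA was found in 1 of the 8 windows, that of Maff, in 1.55% of all windows and in 6.38% of panel windows. In the same 250 bases the CArG box of serum response factor was found in 0 of the 8, in 1.47% of all and in 3.55% of panel windows. Sequence farther upstream was not searched, so a box there would be missed. TATAAA was found in 1 of the 8, in 12.4% of all and in 13.8% of panel windows. A match is a description of letters and says nothing on binding.

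The lists of genes by function differed in their counts. Over all 275 genes 3.64% fell with all libraries, 5.09% without the shallow one and 7.27% with the replicate block as well, with medians of 0.04, -0.03 and -0.03 on the log2 scale. Among immediate-early transcription factor genes 8 of the 16 tested fell and 0 rose, and 11 of 16 fell without the shallow library. Their median change from 60 to 360 min was -1.64, and -1.63 without that library. Nr4a2 had the smallest change of this list (-0.52, limma adjusted p = 0.60). The AP-1 gene Fosl2 and the receptor gene Nr4a3, named after their values were seen, were at -0.57 (adjusted p = 0.61) and -0.92 (adjusted p = 0.57), and at -0.10 and -0.50 without the shallow library (adjusted p = 0.95 and 0.89).

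Of the 7 genes tested that feed back on the ERK pathway, 1 fell, Dusp6, and the median change was -0.45, or -0.89 without the shallow library, where the 1 that fell was Dusp5. Errfi1, which inhibits the EGF receptor, had the smallest change, 0.06 (adjusted p = 0.92), a value that includes 2 reads of the shallow library. In the deep libraries Errfi1 was at 0.484 to 0.623 at 60 min and at 0.369 to 0.483 at 360 min. These did not overlap, as in 5.09% of the genes tested, and the change was -0.30 ± 0.15 (adjusted p = 0.49). Of the 6 genes of cyclic AMP and CREB feedback 0 fell, with a median of -0.34 (-0.28 without the shallow library). The clock gene Per1 had the largest change there (-1.14, adjusted p = 0.34), and Rgs4, which speeds the shut-off of G proteins, the smallest (0.02, adjusted p = 0.99).

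Of the 10 growth arrest, stress and RNA turnover genes 0 fell with all libraries, with a median of -0.89 (-0.71 without the shallow library). Of the 10, 7 were lower at 360 min in 5 of 5 dissections, beside 10.9% of all genes tested. With the replicate block and without the shallow library 6 of the 10 fell, beside 7.27% of all. Csrnp1, a nuclear protein gene, had the largest change in the list. Its 60 min values were 0.0614, 1.40, 0.0715, 0.0287 and 0.0994, where 1.40 is the shallow library, and its 360 min values were 0.0363, 0.0336, 0.0218, 0.00595 and 0.0272. The change was -1.99 ± 0.72 with that library (adjusted p = 0.24) and -1.12 ± 0.35 without it (adjusted p = 0.11), and with the replicate block as well it was -1.21 (adjusted p = 0.0021).

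Synaptic and dendritic effector genes gave 1 fall among 14 tested, that of Arc, with a median of -0.14 (-0.01 without the shallow library). Homer1, a postsynaptic scaffold gene, was at 2.41, 3.25, 2.19, 3.47 and 2.39 at 60 min and at 2.60, 2.86, 1.90, 2.68 and 2.48 at 360 min. The ranges overlapped and the change was -0.12 ± 0.21 (adjusted p = 0.75). Of the 16 tested genes of secreted factors and peptide processing 0 fell, with a median of 0.17 (0.11 without the shallow library). Cyr61, a matrix protein gene, had the largest change there (-1.85 ± 0.70, adjusted p = 0.26), and its 360 min values spread from 0.0977 to 1.75. The neurotrophin gene Bdnf had the smallest (-0.01 ± 0.37, adjusted p = 0.99), a value that includes 2 reads of the shallow library. In the deep libraries Bdnf was at 0.0466 to 0.0867 at 60 min and at 0.0370 to 0.130 at 360 min.

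Of the 159 tested genes in none of these lists and not among the controls, 0 changed, and their median was 0.11. Among the 47 control genes 0 changed, with a median of -0.04.

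The fall was next set against the rise that preceded it. Both comparisons use the same 60 min libraries, so their values stand side by side and are not related to each other. At 60 min 8 of 275 genes were above the unstimulated level (2.91%) and 0 below. They were Fos (4.46 ± 0.40, limma adjusted p = 3.4e-06), Fosb (4.44 ± 0.71, adjusted p = 0.00076), Egr1 (2.81 ± 0.37, adjusted p = 0.00014), Nr4a1 (2.69 ± 0.33, adjusted p = 8.1e-05), Ier2 (1.58 ± 0.23, adjusted p = 0.00044), Maff (1.72 ± 0.37, adjusted p = 0.013), Dusp6 (1.79 ± 0.43, adjusted p = 0.035) and Arc (1.84 ± 0.47, adjusted p = 0.049). Klf4 and Egr3 fell afterwards without a call in the rise (0.81 ± 0.32, adjusted p = 0.32, and 1.64 ± 0.46, adjusted p = 0.086). Without the shallow library all 8 passed again, from 1.44 for Dusp6 (adjusted p = 0.033) to 4.16 for Fos (adjusted p = 3.3e-06). There 13 genes had risen (4.73%), and Junb, Egr2, Npas4, Dusp5 and Nfil3 were those added. With the replicate block as well it was 21 (7.64%). Without the unstimulated cultures of dissection 6 the count was 5.

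For the 8 risers the share of the rise that was left at 360 min was computed on the deposited linear scale, as a description. From group means it was 0.812% for Fos, 0.917% for Fosb, 3.07% for Maff, 5.41% for Dusp6 and 8.61% for Nr4a1. It was -0.195% for Arc, -6.14% for Egr1 and -7.88% for Ier2, where a negative share means a level under the unstimulated mean. Without the shallow library the share was 1.12% for Fos, 4.08% for Fosb, 4.28% for Maff, 9.10% for Dusp6 and 7.72% for Nr4a1. For Arc, Egr1 and Ier2 it was then -0.161%, -7.66% and -8.45%. The median over the 8 genes was 0.864%, and 2.60% without the shallow library. Single dissections spread more widely. The share ranged from -2.04% to 1.90% for Fos, from -3.82% to 24.4% for Fosb and from 0.774% to 28.7% for Nr4a1. For Dusp6 it ranged from -13.1% to 17.6% and for Egr1 from -42.6% to -1.09%. Nr4a1 was the only one of the 8 with a share above 0 in all 5 dissections, and Egr1 the only one with a share below 0 in all 5.

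**Figure D2:**
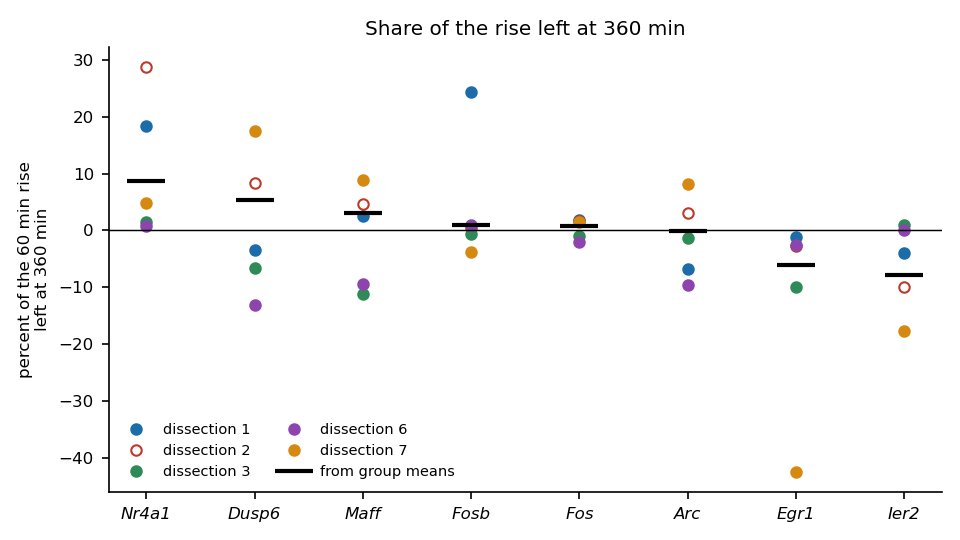
Percent of the 60 min rise that was left at 360 min for the 8 genes that had risen, with 1 point per dissection (open, the dissection with the shallow 60 min library) and a bar for the value from group means. The bars lie between -7.88% and 8.61%.

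The distance from the unstimulated level at 360 min was then taken for every gene. Of 275 genes 0 passed in either direction in limma (0% each way), with 2 at an unadjusted p under 0.05, and the same count of 0 was found without the shallow library. A missed threshold does not show a return, so the 95% interval was used. It lay wholly within 2-fold of the unstimulated level for 123 genes (44.7%), and for 212 genes (77.1%) when the shallow library, which widens the shared estimate of the spread, was left out. The median distance was 0.06 on the log2 scale, and 257 of the 275 estimates were within 0.5 of 0.

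Among the 10 falling genes the interval with all libraries was within 2-fold for Maff (0.06, -0.72 to 0.84) and Ier2 (-0.27, -0.77 to 0.23). For Fos it was -0.71 to 1.01 around 0.15, which just crossed the bound, and -0.56 to 0.86 without the shallow library. For Arc it was -1.01 to 1.00 around 0.00, and -0.91 to 0.90 without that library. Dusp6 (0.12, -0.62 to 0.87) and Egr3 (-0.25, -0.98 to 0.48) were also within 2-fold without it. The interval reached beyond 2-fold on both fits for Fosb (0.46, -1.04 to 1.96 with all libraries), Nr4a1 (0.51, -0.19 to 1.21), Klf4 (-0.50, -1.17 to 0.17) and Egr1 (-0.78, -1.57 to 0.01). Of these, Egr1 was the one whose estimate lay farthest below the unstimulated level, and without the shallow library its interval was -1.46 to -0.10.

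**Figure D3:**
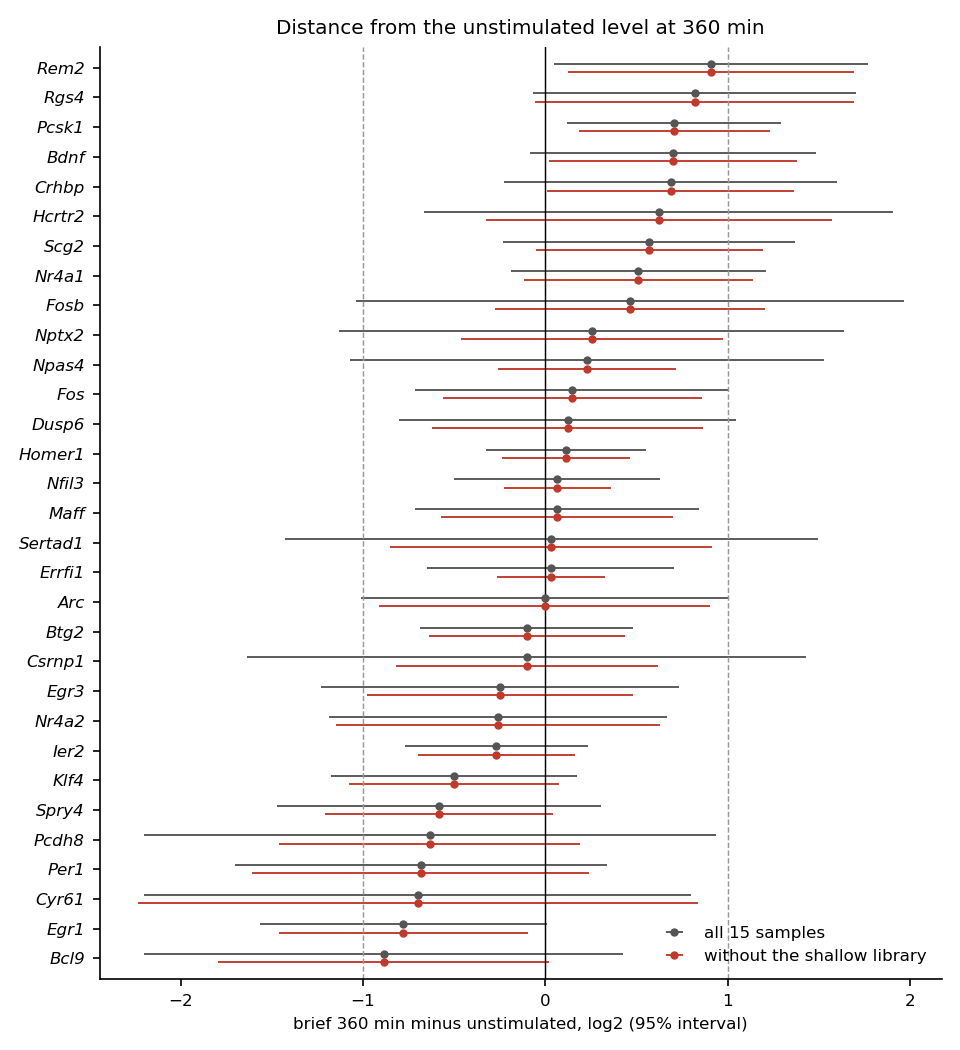
Brief 360 min minus unstimulated on the log2 scale with the 95% interval, for the genes named here, with all 15 samples (grey) and without the shallow library (red). Dashed lines mark 2-fold. Rem2 (0.91), Rgs4, Pcsk1 and Bdnf are at the upper end and Egr1 and Bcl9 (-0.89) at the lower.

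The 6 genes farthest above the unstimulated level at 360 min were not among the 10 that had fallen. Rem2, a small GTPase of the RGK family, was at 0.387, 0.176, 0.165, 0.0895 and 0.0900 in unstimulated cultures and at 0.402, 0.337, 0.365, 0.217 and 0.230 at 360 min. It was higher in 5 of 5 dissections although the ranges overlapped, and the distance was 0.91 (0.04 to 1.77). Pcsk1, the protease that cuts prohormones into active peptides, was at 0.0774, 0.0662, 0.144, 0.0799 and 0.0520 before and at 0.123, 0.133, 0.186, 0.113 and 0.130 at 360 min. It too was higher in 5 of 5 dissections, by 0.71 (0.12 to 1.29).

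Rgs4 was at 0.879, 0.661, 0.805, 0.287 and 0.244 before and at 1.48, 1.18, 1.14, 0.503 and 0.586 at 360 min, higher in 5 of 5 by 0.82 (-0.07 to 1.70). Bdnf was higher in 4 of 5, by 0.70 (-0.09 to 1.48), from 0.0668, 0.0586, 0.0283, 0.0398 and 0.0254 to 0.130, 0.109, 0.0472, 0.0370 and 0.0767. Crhbp, which encodes a protein that binds the stress peptide CRH, and Hcrtr2, an orexin receptor gene, were at 0.69 and 0.62. Each of these 6 missed the threshold in limma with all libraries (adjusted p = 1).

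With the dissection as a replicate block and without the shallow library 4 genes were above the unstimulated level at 360 min (1.45%) and 0 below. They were Rem2, Rgs4, Pcsk1 and Scg2, each at an adjusted p of 0.047. Scg2, a granin of secretory vesicles named after its value was seen, went from 0.511, 0.543, 0.910, 0.412 and 0.323 to 0.699, 0.679, 1.18, 0.781 and 0.572. With the block alone 0 genes passed. Over the whole panel 32 of 275 genes were higher at 360 min than in the unstimulated culture of their own dissection in 5 of 5 dissections (11.6%), and 5 were lower in 5 of 5 (1.82%). Groups without any overlap were rare, 1 gene above (0.364%) and 1 below (0.364%). They were Fndc9, at 0.0420 to 0.0503 before and 0.0537 to 0.0750 at 360 min, and the kinase gene Stk11, at 2.13 to 2.38 before and 1.80 to 2.12 at 360 min, both named after their values were seen.

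At the lower end of the distances were Bcl9 (-0.89, -2.20 to 0.42), a cofactor gene of Wnt signalling, Egr1, Cyr61 (-0.70, -2.20 to 0.80), Per1 (-0.68, -1.70 to 0.34), the protocadherin gene Pcdh8 (-0.63, -2.20 to 0.93) and Spry4 (-0.58, -1.47 to 0.31). These intervals are wide, and those of the 5 genes other than Egr1 include 0 on both fits. Nptx2, which encodes a pentraxin at synapses, was at 0.0332, 0.0321, 0.0402, 0.0136 and 0.00967 before and at 0.0413, 0.0419, 0.0458, 0.0123 and 0.0203 at 360 min, a distance of 0.25 (-1.13 to 1.64).

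The same interval was examined under sustained activity, where 60 and 360 min libraries of the same 5 dissections were at hand. The change from 60 to 360 min after brief activity was lower than that under sustained activity for 131 of 283 genes (46.3%) and higher for 0 (limma, 5 groups in 1 fit). When each library was scaled on the median of all genes instead of the control genes, the split became 10 lower and 27 higher. The median difference over all genes was -1.24 on the deposited scale and -0.16 on the other, a shift of 1.08. Most of the 131 are thus stated relative to the control genes only. Scaling on all genes takes the panel median as unchanged, and 251 of the 298 panel genes are not controls. The 47 control genes, on which the deposited scale rests, had a median difference of -0.07 there, and 1 of them was lower. Which scale is nearer the truth was not tested. On the summed reads of the control genes 70 were lower.

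Among the falling genes, 5 of 10 differed between the patterns on the deposited scale, a share close to the 46.3% of all genes tested. Fos was at 12.3, 10.3, 10.8, 7.57 and 7.55 at 60 min of sustained activity and at 6.88, 8.69, 6.09, 4.22 and 3.29 at 360 min. Its change there was -0.79 ± 0.37, and the difference between the patterns was -3.52 ± 0.52 (limma adjusted p = 2.2e-05), or -2.34 when scaled on all genes (adjusted p = 0.0060). Nr4a1 went from 2.97, 1.91, 2.87, 2.39 and 2.88 to 4.25, 5.90, 2.08, 2.88 and 1.27 under sustained activity. The difference was -2.34 ± 0.50 (adjusted p = 0.0010), and -1.15 when scaled on all genes (adjusted p = 0.12). Fosb, Maff and Dusp6 also passed on the deposited scale (-2.87, -1.89 and -1.46, adjusted p = 0.035, 0.0063 and 0.034) and not when scaled on all genes (adjusted p = 0.36, 0.36 and 0.80). Without the shallow library Fosb and Dusp6 did not pass (adjusted p = 0.056 and 0.052).

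For Egr1, Ier2, Egr3, Klf4 and Arc the difference between the patterns did not pass the test without a replicate block. The sign of the difference for Egr1, Ier2, Egr3 and Klf4 turned from negative to positive when scaled on all genes, to 0.68, 0.52, 0.13 and 0.12. Egr1 was at 3.83, 4.29, 2.00, 3.31 and 0.792 at 60 min of sustained activity and at 0.377, 0.845, 0.139, 0.117 and 0.241 at 360 min, a change of -3.16 ± 0.49 beside -3.59 ± 0.37 after brief activity. The difference was -0.43 ± 0.69 (adjusted p = 0.64). Arc was at 1.38, 0.482, 2.46, 0.418 and 0.724 and then at 0.156, 0.117, 0.267, 0.0264 and 0.0714, a change of -2.99 ± 0.55 beside -1.85 ± 0.47. The difference was 1.14 ± 0.78 (adjusted p = 0.25), and 2.17 when scaled on all genes (adjusted p = 0.052). With the dissection as a replicate block Arc passed as the 1 gene with a higher value after brief activity, that is a smaller fall (adjusted p = 0.021, and 0.029 without the shallow library as well).

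Genes whose fall after brief activity did not pass with all libraries are set beside their sustained values next. Of these, Nfil3 did fall without the shallow library. Pcsk1 was at 0.157, 0.278, 0.371, 0.294 and 0.317 at 60 min of sustained activity and at 6.58, 4.11, 7.32, 13.1 and 6.77 at 360 min. The difference between the patterns was -4.35 ± 0.42 (limma adjusted p = 5.1e-08), and -3.15 when scaled on all genes (adjusted p = 2.8e-05). Bdnf was at 0.0831, 0.0787, 0.0555, 0.0516 and 0.0750 and then at 2.68, 1.60, 1.76, 1.76 and 1.54, with a difference of -4.59 ± 0.45 (adjusted p = 5.1e-08). Homer1 differed by -2.40 ± 0.36 (adjusted p = 2.3e-05), and Nfil3, which was higher at 360 than at 60 min of sustained activity and lower after brief activity, by -2.79 ± 0.37 (adjusted p = 9.0e-06). Bdnf, Homer1 and Nfil3 also passed when scaled on all genes (adjusted p = 2.8e-05, 0.033 and 0.018). Without the shallow library the differences were -4.25 for Pcsk1, -4.36 for Bdnf, -2.33 for Homer1 and -2.52 for Nfil3, and each passed.

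**Figure D4:**
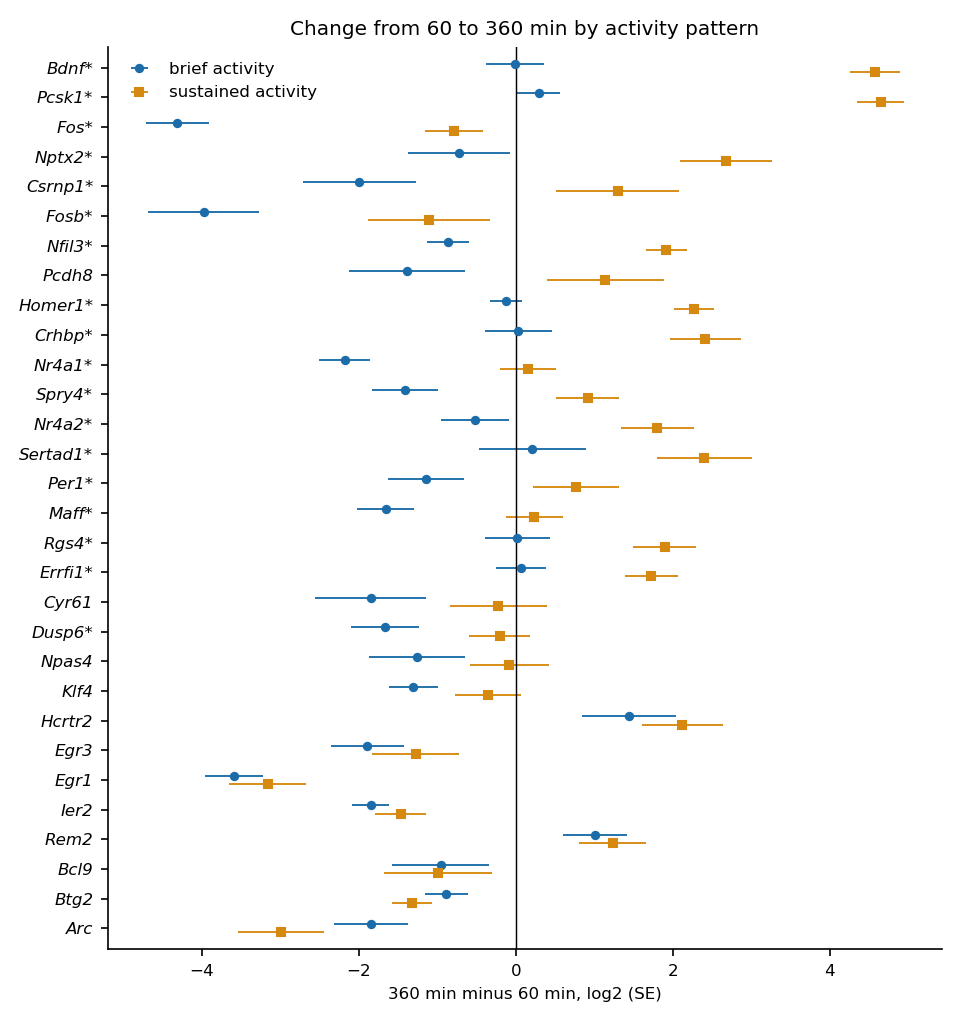
Change from 60 to 360 min on the log2 scale (SE over 5 dissections) after brief activity (circles) and under sustained activity (squares) for the named genes, ordered by the difference. An asterisk marks an adjusted p under 0.05 for the difference on the deposited scale. Bdnf and Pcsk1 are at the top, with sustained changes of 4.58 and 4.65, and Arc is at the bottom.

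Earlier points of the same course came from 3 captured libraries at 20 min after brief activity, which were not joined to the tests. Not all of these libraries have a dissection number in their label. The Fos signal was 1.31, 1.70 and 1.34 at 20 min. Npas4 was at 0.441, 0.301 and 0.185, above its values in the 4 deep libraries at 60 min. Nr4a1 was at 0.118, 0.143 and 0.142, under all 5 of its 60 min values. Maff, at 0.0104, 0.0184 and 0.0264, was under all 5 of its 60 min values as well, and its unstimulated range reached 0.0165.

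Reads over introns, which come mostly from unspliced transcripts, gave a second readout in total RNA libraries, 4 unstimulated, 2 at 20 min and 1 at 60 min after brief activity. The series lists no total RNA library at 360 min after brief activity, and with 1 library at 60 min no test was made. Fos introns were at 0.124, 1.53, 0.499 and 1.91 RPM in unstimulated cultures, at 27.8 and 27.5 RPM at 20 min and at 11.5 RPM at 60 min. Fosb introns were at 0.0832 to 0.354 RPM before, at 20.0 and 18.2 RPM at 20 min and at 0.922 RPM at 60 min. The 60 min library was thus far below the 20 min libraries for both, although the captured Fosb signal at 20 min (0.233, 0.234 and 0.328) and in the deep libraries at 60 min (0.112 to 0.301) overlapped.

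The other falling genes with a listed intron showed the same order of the single 60 min library. Nr4a1 introns were at 0.666 to 1.53 RPM before, at 20.6 and 21.0 RPM at 20 min and at 4.98 RPM at 60 min. Egr1 was at 10.3 and 11.2 RPM and then at 1.20 RPM, and Dusp6 at 35.6 and 30.0 RPM and then at 11.3 RPM. Egr3, Maff, Klf4 and Arc were lower in the 60 min library than in both 20 min libraries too, and Ier2 had no listed intron. Arc and Klf4 rest on few reads at 60 min, 9 and 3, against 29 and 29 and against 13 and 34 at 20 min.

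Among genes without a fall in the captured RNA, Homer1 introns were at 93.3 to 128 RPM before, 195 and 143 RPM at 20 min and 184 RPM at 60 min. Rgs4 introns were at 3.33 to 5.46 RPM, then 13.4 and 9.67 RPM, then 16.2 RPM. Pcsk1 was at 2.41 to 3.83 RPM, then 6.47 and 5.52 RPM, then 5.99 RPM, and Bdnf at 2.45 to 4.83 RPM, then 5.06 and 5.96 RPM, then 6.64 RPM. In these 4 genes the 60 min library was above all 4 unstimulated libraries, which did not hold for every gene without a fall. Errfi1 introns were at 11.7 to 14.3 RPM before, 30.7 and 27.7 RPM at 20 min and 12.4 RPM at 60 min. Spry4 was at 4.01 to 5.66 RPM, then 8.71 and 8.99 RPM, then 3.78 RPM, and Sertad1 was at 0.434 to 0.916 RPM before and 0.184 RPM at 60 min. Nr4a2 was at 1.17 to 3.79 RPM, then 6.99 and 3.42 RPM, then 2.95 RPM, inside its unstimulated range.

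**Figure D5:**
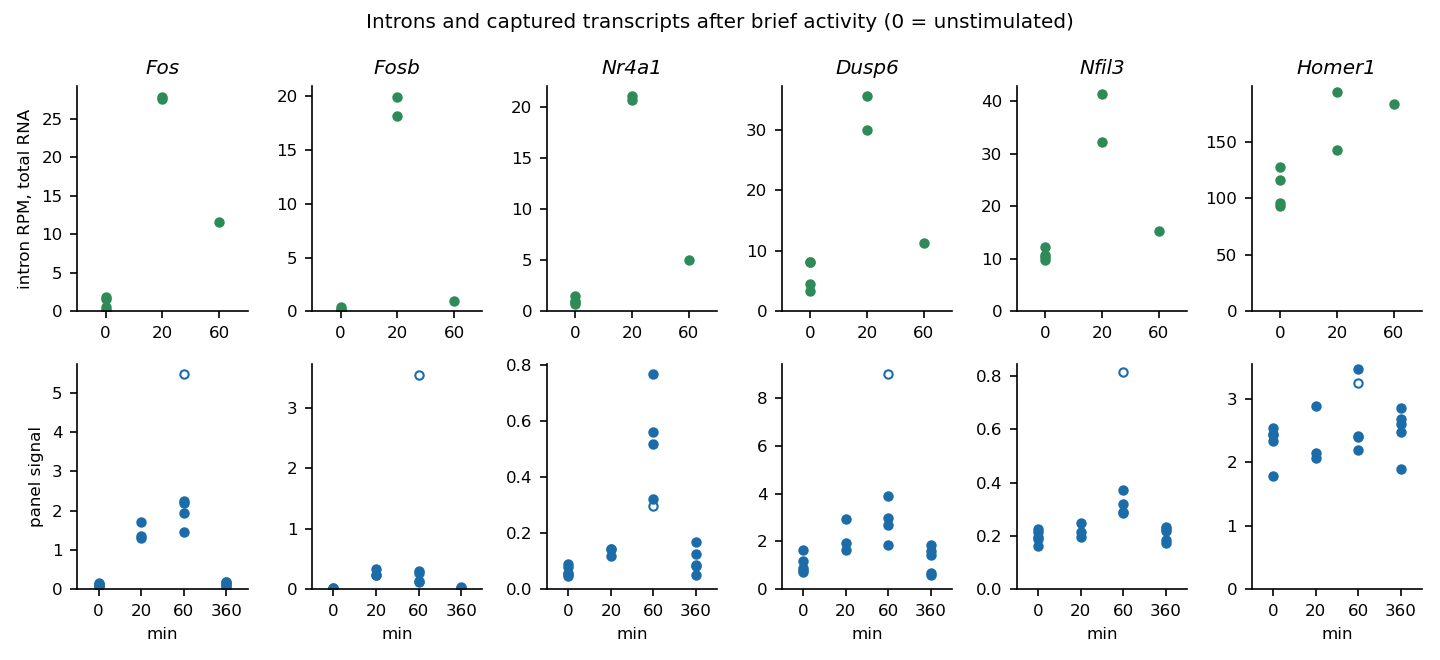
Intron levels in total RNA (upper row, RPM, 1 point per library at 0, 20 and 60 min) and captured panel signal (lower row, 0, 20, 60 and 360 min) after brief activity for 6 genes, on linear axes from 0. Captured points are 1 per dissection, but 1 per library at 20 min, where not every label gives a dissection. Open circles are the 60 min library of 8498 reads. Intron levels of Fos, Fosb, Nr4a1, Dusp6 and Nfil3 are lower at 60 than at 20 min, and that of Homer1 at 60 min lies between the 20 min values.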

How the data were processed

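Libraries were made with a stranded kit for total RNA and hybridised to baits for the panel, per the labels' protocols. The submitters' processing notes list the build mm9 with the tools STAR, SAMtools and bedtools. The captured values were deposited by the authors as a signal that recovers as whole reads over the geometric mean of 47 genes, with 0.01 read added to each (58 of 58 libraries). Introns were deposited as RPM. The 2 unstimulated cultures of a dissection were averaged. The 0.1 quantile of the signals above 0 (0.00920) was the pseudocount and the lowest mean over the 15 samples for a test, which left out 23 genes. Genes such as Gpr3 and Egr4 reached that mean only through the shallow library, with 2 and 5 reads there. Their other values were at most 0.00753 and 0.00654, and Gpr3 is among the 30 genes lower in 5 of 5 dissections. limma 3.58.1 under R 4.3.3 fitted 3 groups of 5 without a block. Same-numbered samples pair, since cultures of 1 number share a dissection in the labels and their deviations correlated (r 0.121 to 0.811 in 15 of 15 pairs). The limma script was tested on simulated data. Python 3.11.15 drew the figures. Of the brief table, 1 column matched no sample and was not used. One intron column equal to a U0126 column was left out. Without the block, p-values measure the spread between dissections within a group and leave the pairing out. PCR copies count as reads. The genes named were those past the threshold, 8 markers, the 6 largest and 6 smallest distances, the 3 next below the threshold and the extremes of each list. Members and lists were chosen with earlier results of these data known.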

Additional observations from a re-analysis of the deposited data

Results flagged for a closer look

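Values far from the others of their group were looked for in 90 groups of 5 samples, 30 named genes in 3 groups. A gap to the nearest value above Dixon's critical share of the range was found in 16 groups. For normally distributed values chance gives about 5% of groups, 1 in 20. The signals were taken on the linear scale, so that rate need not hold here. Of the 16, 10 were high values in the 60 min library of 8498 reads, namely Fos (5.47), Fosb (3.55), Egr3 (0.296), Dusp6 (9.02), Nptx2 (0.517), Bcl9 (2.73), Pcdh8 (9.39), Spry4 (0.887), Nfil3 (0.813) and Csrnp1 (1.40). The other 6 were in deep libraries. Btg2 was high at 60 min in dissection 7 (2.09). Pcsk1 was high at 360 min in dissection 3 (0.186) and Cyr61 in dissection 7 (1.75). In unstimulated cultures Maff was low in dissection 6 (0.00744), Homer1 was low in dissection 3 (1.79) and Crhbp was high in dissection 3 (0.0227).

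The change from 60 to 360 min differed between brief and sustained activity for 18 of the 30 named genes on the deposited scale (limma). All 18 were lower after brief activity, as were 131 of all 283 genes tested (46.3%), so the count is not particular to the named genes. The difference, brief minus sustained on the log2 scale, was -3.52 for Fos, -2.87 for Fosb, -2.34 for Nr4a1, -1.89 for Maff and -1.46 for Dusp6. It was -2.79 for Nfil3, -3.29 for Csrnp1, -2.19 for Sertad1, -2.33 for Spry4, -1.66 for Errfi1 and -2.32 for Nr4a2. It was -4.59 for Bdnf, -4.35 for Pcsk1, -3.40 for Nptx2, -2.40 for Homer1, -2.39 for Crhbp, -1.91 for Per1 and -1.88 for Rgs4. Scaled on the median of all genes, Fos, Bdnf, Pcsk1, Nfil3 and Homer1 still passed as lower, and Btg2 passed as higher (1.64, adjusted p = 0.0033). That scaling takes the panel median as unchanged, which was not tested.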

How the results depend on the processing

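With the dissection as a replicate block 11 genes fell and 1 gene, Arc, was higher in the contrast with sustained activity, where Cyr61 (-1.62) and Pcdh8 (-2.52) also passed as lower, and no gene lost its fall. The block without the shallow library, chosen after seeing the data, gave 20 falls, 21 rises, 4 genes above the unstimulated level, 242 within 2-fold of it and 4 higher in the contrast with sustained activity. Dissections 1, 2 and 3 alone gave 2 falls, 3 rises, 56 genes within 2-fold and 57 lower in that contrast. Dissections 6 and 7 alone gave 6 falls, 5 rises and 1 gene higher in the contrast. A pseudocount 10 times larger gave 4 falls, 5 rises, 230 genes within 2-fold and 1 higher in the contrast. Scaling on all genes gave 10 lower and 27 higher in the contrast, and scaling on the summed control genes, also chosen after seeing the data, 70 lower. That scaling moved the median of all genes by 0.23 in the fall and by -0.19 in the rise. With all numbered dissections the median share of the rise left was -6.52%. Leaving out 1 library at a time gave 5 to 14 falls (5 without the 360 min library of dissection 6, 6 without that of dissection 3, 14 without the shallow library), 0 genes higher at 360 than at 60 min, 5 to 13 rises, 0 genes lower in the rise, 0 above and 0 below the unstimulated level, 99 to 212 within 2-fold, 112 to 159 lower and 0 to 2 higher in the contrast, and 0.294% to 2.67% of the rise left. Of the 10 falls, 5 (Fos, Egr1, Ier2, Nr4a1 and Fosb) passed in each fit that left out 1 library. Over all 28 other settings of the fall, 1 gene, Fos, passed in each. Egr1, Ier2 and Nr4a1 passed in 27, Fosb in 26, Maff in 23, Klf4 and Egr3 in 17, Arc in 10 and Dusp6 in 8. No named gene past the threshold turned its direction in the settings run, while values without a call did, among them the contrast with sustained activity for Egr1, Ier2, Egr3 and Klf4 when scaled on all genes. The edgeR alternatives were not run because the deposited values are a normalised signal. Depth limits the shallow library, where 1 read is a signal of 0.0739.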
